A study of Rattus norvegicus with 12 samples.

Results

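NMDA and kainate receptors are ion channels opened by glutamate, and their subunits are encoded by the Grin and Grik genes. The members described here are all probe sets whose only annotated gene symbol was 1 of 10 subunit genes, Grin1, Grin2a, Grin2b, Grin2c, Grin2d, Grin3a, Grik1, Grik2, Grik4 and Grik5. They made up 13 of the 15866 probe sets that were not manufacturer's controls. Grin1, Grin2a and Grin2d had 2 probe sets each and the others 1. RNA came from the microdissected CA1 region, the output field of the hippocampus, of 12 male Long-Evans rats aged 3 to 4 months, and each rat gave 1 Affymetrix RAE230A array. Animals of both groups had earlier received standard spatial training in a water maze, and 2 to 3 weeks later all were given 1 session of 8 trials, with 8 minutes between them, at another site that held a new maze. In the spatial learning group (n = 6) a visible platform stayed in place and orienting cues were present. In the control task group (n = 6) the visible platform moved between trials and the surroundings held no informative cues. All 12 rats swam a 90-second probe trial without a platform 1 hour after training and were killed directly after it. There were no untrained animals, so the comparison sets learning of a platform place against the same number of trials with no stable place to learn.

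An NMDA receptor is built around the obligatory subunit GluN1 (Grin1) and needs glutamate, a glycine-site co-agonist and depolarisation to pass calcium, which makes it the classical trigger of synaptic potentiation at CA1 synapses. The GluN2 subunits (Grin2a to Grin2d) set its kinetics, and a shift in the balance of GluN2A and GluN2B is a well known feature of development and plasticity. Kainate receptors combine GluK1 to GluK3 (Grik1 to Grik3), which can form channels alone, with GluK4 and GluK5 (Grik4 and Grik5), which need such a partner and raise the affinity for the agonist. In the hippocampus kainate receptors are known best from the mossy fibre synapses of CA3.

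No NMDA or kainate receptor subunit passed the test between spatial learning and the control task. The smallest p among them was that of Grik5, which encodes the high-affinity kainate subunit GluK5, with a mean level after learning 1.13-fold that of the control task group on the array scale. On the Grin2c and Grik4 probe sets all 6 learning arrays lay above the control median, and on those of Grin1 and Grik5 5 of 6 did. On the dimmer of the 2 Grin2a probe sets 0 of 6 did, and on that of Grik2 1 of 6. The brighter Grin2a probe set and that of Grin2b had 2 of 6 each. The share of all tested probe sets with such counts was not computed. The brighter Grin2a probe set varied so widely between animals within each group that its mean difference, the largest in size, was smaller than its own standard error. Grin2b differed by -0.031 and Grik2 by -0.034 (log2). Of the 13 probe sets, 8 from 7 genes averaged 4 or more on the log2 scale across the arrays and were tested, and Grin2d, Grin3a, Grik1 and the second Grin1 probe set lay below that level. Among the 8 tested, 0 had a limma adjusted p under 0.05, as did 0 of 9610 probe sets overall (0%), and the members' adjusted p lay between 0.420 and 0.928. At an unadjusted limma p under 0.05 there was 1 member of 8, while 10.9% of all tested probe sets met the same mark, so the share among the members was close to the background. Differences were above 0 in 4 members and below 0 in 4, while 53.7% of all tested probe sets were above 0. Their median was 0.022, and that of all tested probe sets 0.0079. In 0 of the 8 were the groups free of overlap, against 0.635% of all tested probe sets.

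Some arrays stood apart in transcripts of neighbouring tissue. The mean level over the 3 tested choroid plexus markers lay between 5.70 and 6.05 on the spatial learning arrays and between 5.94 and 9.49 on the control task arrays, with the peak on control task replicate 3. Most of this came from Ttr, which ran from 4.55 to 13.4 on the control task arrays. Learning minus control was -3.33 for Ttr, -0.41 for Enpp2 and, in the other direction, 0.18 for Kcne2 (log2, limma adjusted p = 0.423, 0.538 and 0.458). The mean over the 5 tested meningeal markers was 7.58 on spatial learning replicate 6 and 7.78 on control task replicate 6, against at most 6.68 elsewhere. Of the 7 CA1 markers, all 7 were above the level filter, and 7 of 7 had higher means after learning (median 0.15, exact permutation p of the list mean = 0.0390, 0.143 adjusted over 11 marker lists). The 2 tested excitatory neuron markers were lower (list mean difference -0.13, exact permutation p = 0.0779, 0.181 adjusted). So were the 3 tested dentate gyrus markers (-0.25, exact permutation p = 0.0823, 0.181 adjusted). For the choroid plexus list the exact permutation p was 0.0130, 0.143 adjusted. The 3′ minus 5′ signal of the hexokinase control, which widens as RNA degrades, was 1.65 ± 0.11 in the spatial learning group and 1.48 ± 0.08 in the control task group (log2, SD, n = 6 each, exact permutation p = 0.00433, 0.0130 adjusted over 3 such gaps). The other gaps did not pass. Learning minus control was 0.096 for beta-actin (exact permutation p = 0.0779, 0.117 adjusted) and -0.00019 for Gapdh (exact permutation p = 0.998, 0.998 adjusted). Apart from fits with the hexokinase gap as a covariate and its correlations with the members within groups, its part in the differences below was not tested. The titles call the arrays biological replicates, so p-values measure the spread between these 12 animals. The labels name no dissection or hybridisation sets, and a difference in handling tied to the groups could not be told apart from the task.

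Grin1, which encodes the subunit present in every NMDA receptor, was measured by the probe set 1368572_a_at. Its lowest, median and highest log2 levels were 9.27, 9.34 and 9.50 on the spatial learning arrays, against 9.21, 9.29 and 9.33 on the control task arrays. Of the learning arrays, 3 lay above the highest control, and 1 control lay below the lowest learning array. The difference was 0.075 (SE 0.043, 95% interval -0.018 to 0.17, n = 6 each, limma adjusted p = 0.544), an interval from 0.988-fold to 1.12-fold. Within a group the Grin1 level had an SD of 0.066, and 11.5% of the tested probe sets had a lower one.

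A second Grin1 probe set, 1389900_at, gave a dim signal and was not tested. Its levels ran from 2.76 to 3.11 on the spatial learning arrays and from 2.75 to 3.61 on the control task arrays. With the dim one set at the level filter, the Grin1 probe sets stood at least 5.32 log2 units apart on the same RNA, while the means of the brightest and the dimmest tested member were 4.83 units apart. Probe set brightness therefore was not read as a ranking of the subunits by transcript amount. The means over all arrays were 9.32 for Grin1, 8.99 for Grin2c, 7.96 for Grik5, 7.34 for Grik2, 6.50 and 4.49 for Grin2a, 6.06 for Grik4 and 5.94 for Grin2b, and these are given as signals of 8 separate probe sets, not as an order of abundance.

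**Figure D1:**
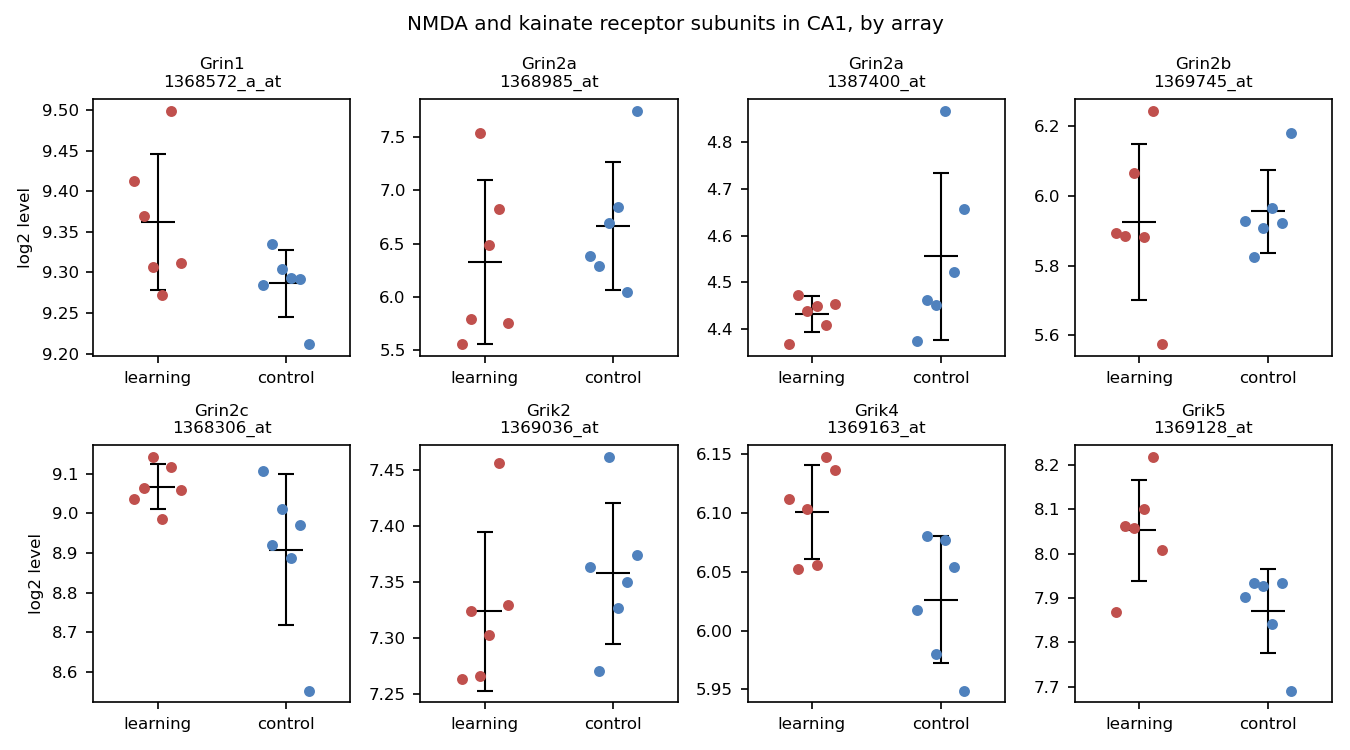
Log2 level of each array (points) for the 8 tested probe sets, spatial learning on the left and control task on the right of each panel, with bars for the mean and SD of 6 arrays and a separate vertical scale per panel. The groups overlap in every panel, and the span of the 12 values runs from 0.198 in Grik2 to 2.19 in the brighter Grin2a probe set.

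Grin2a encodes GluN2A, the GluN2 subunit that gives mature receptors their fast decay. Its brighter probe set, 1368985_at, had lowest, median and highest levels of 5.56, 6.14 and 7.54 on the spatial learning arrays, against 6.04, 6.54 and 7.75 on the control task arrays. Of the learning arrays, 3 lay below the lowest control, yet replicate 3 of the learning group was higher than all controls but one. The difference was -0.34 (SE 0.35, 95% interval -1.09 to 0.41, n = 6 each, limma adjusted p = 0.757). The within-group SD of 0.69 was larger than in 99.7% of all tested probe sets, so the interval allows anything from 0.468-fold to 1.33-fold. Without spatial learning replicate 3 the difference was -0.58, without control task replicate 6 it was -0.12 (limma adjusted p = 0.898), and without the 3 arrays that stood apart in choroid plexus or meningeal transcripts it was 0.051 (limma adjusted p = 0.963).

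The dimmer Grin2a probe set, 1387400_at, had a much narrower spread. It ranged from 4.37 over a median of 4.44 to 4.47 on the spatial learning arrays, against 4.37, 4.49 and 4.87 on the control task arrays. The learning arrays were tightly packed near the level filter, while 3 controls lay above all of them. Its difference was -0.12 (SE 0.072, 95% interval -0.28 to 0.030, limma adjusted p = 0.545). The annotation ties both Grin2a probe sets to the same sequence record, yet their deviations from the group means were only weakly related over the 12 arrays (Pearson r = 0.32, permutation p = 0.294, Spearman rho = 0.32, permutation p = 0.266, r = 0.28 without the 2 arrays farthest out). The differences between the groups given by these probe sets were themselves 0.22 apart (exact permutation p = 0.578), a distance within the spread between animals. Adjusted over the 3 genes with 2 probe sets, 0 of the 3 correlations passed.

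Grin2b encodes GluN2B, the slower GluN2 subunit that binds the kinase CaMKII. The single probe set, 1369745_at, stood at 5.57, 5.89 and 6.25 (lowest, median, highest) on the spatial learning arrays, against 5.83, 5.93 and 6.18 on the control task arrays. The learning group held both the highest and the lowest array, replicates 5 and 6. The difference was -0.031 (SE 0.097, 95% interval -0.24 to 0.18, limma adjusted p = 0.928), and it was 0.039 without spatial learning replicate 6 and 0.10 with the hexokinase gap as a covariate, so no direction can be given. The level of Grin2a minus that of Grin2b was computed per array, using the brighter Grin2a probe set. This value averaged 0.40 ± 0.64 in the spatial learning group and 0.71 ± 0.50 in the control task group (log2, SD, n = 6 each). The groups overlapped widely, from -0.34 to 1.47 after learning and from 0.12 to 1.57 in controls, and the difference of -0.31 had an exact permutation p of 0.368. It was -0.033 without the 3 arrays that stood apart (exact permutation p = 0.944) and -0.093 without replicate 6 of both groups (exact permutation p = 0.786). With the dimmer Grin2a probe set it was -0.093 (exact permutation p = 0.439).

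**Figure D2:**
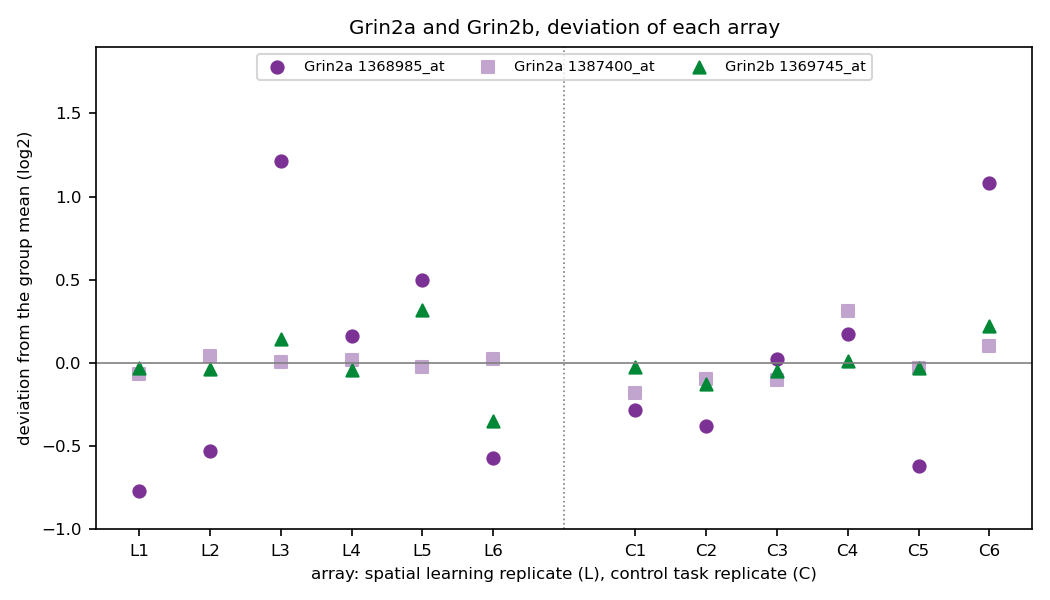
Deviation of each array from its group mean (log2) for the 2 Grin2a probe sets and Grin2b, with the spatial learning arrays L1 to L6 left of the dotted line and the control task arrays C1 to C6 right of it. The brighter Grin2a probe set is high on L3 and C6 and low on L1 and C5, the dimmer one stays near 0 on the learning arrays, and Grin2b is lowest on L6.

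Grin2b and the brighter Grin2a probe set varied from animal to animal in rank with some, but not all, probe sets of AMPA receptor genes. Correlations of deviations from the group means were computed over the 12 arrays for the 8 tested members against 6 other probe sets, 5 of AMPA receptor genes and 1 of Grina, 48 pairs in all, a set chosen after values were seen. Grin2b followed Gria1, which encodes the AMPA subunit GluA1 (Pearson r = 0.85, permutation p = 0.00377, adjusted 0.0527, and Spearman rho = 0.78, permutation p = 0.00302, adjusted 0.0483). The relation remained without the 2 arrays farthest from the Grin2b median (r = 0.91) and was weaker without replicate 6 of both groups (r = 0.66). Grin2b also followed Gria3 on probe set 1368691_at (Pearson r = 0.77, permutation p = 0.00792, adjusted 0.0760, and Spearman rho = 0.83, permutation p = 0.00220, adjusted 0.0483), with r = 0.93 without the 2 farthest arrays and 0.57 without replicate 6 of both groups. The brighter Grin2a probe set and Gria1 gave r = 0.76 (permutation p = 0.00332, adjusted 0.0527) and rho = 0.78 (permutation p = 0.00274, adjusted 0.0483), falling to r = 0.51 without the 2 farthest arrays. With Gria3 probe set 1368691_at the brighter Grin2a probe set gave r = 0.85 (permutation p = 0.00182, adjusted 0.0527) and rho = 0.71 (permutation p = 0.0159, adjusted 0.191), falling to r = 0.53 without the 2 farthest arrays. Grin2b and Gria2 probe set 1368401_at gave r = 0.81 (permutation p = 0.00439, adjusted 0.0527) and rho = 0.64 (permutation p = 0.0326, adjusted 0.313). Other probe sets of the same genes did not share the pattern. Gria2 probe set 1387171_at gave r = 0.34 with Grin2b (permutation p = 0.404, and rho = 0.36, permutation p = 0.298). Gria3 probe set 1376892_at gave r = -0.16 with Grin2b (permutation p = 0.673, and rho = -0.25, permutation p = 0.466) and r = -0.16 with the brighter Grin2a probe set (permutation p = 0.643, and rho = -0.27, permutation p = 0.448). The dimmer Grin2a probe set gave r = 0.20 with Gria1 (permutation p = 0.497, and rho = 0.43, permutation p = 0.162). Of the 48 pairs, 3 passed after adjustment by Spearman's rho and 0 by Pearson's r. The values share array normalization and dissection, and what these may contribute was not tested.

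**Figure D3:**
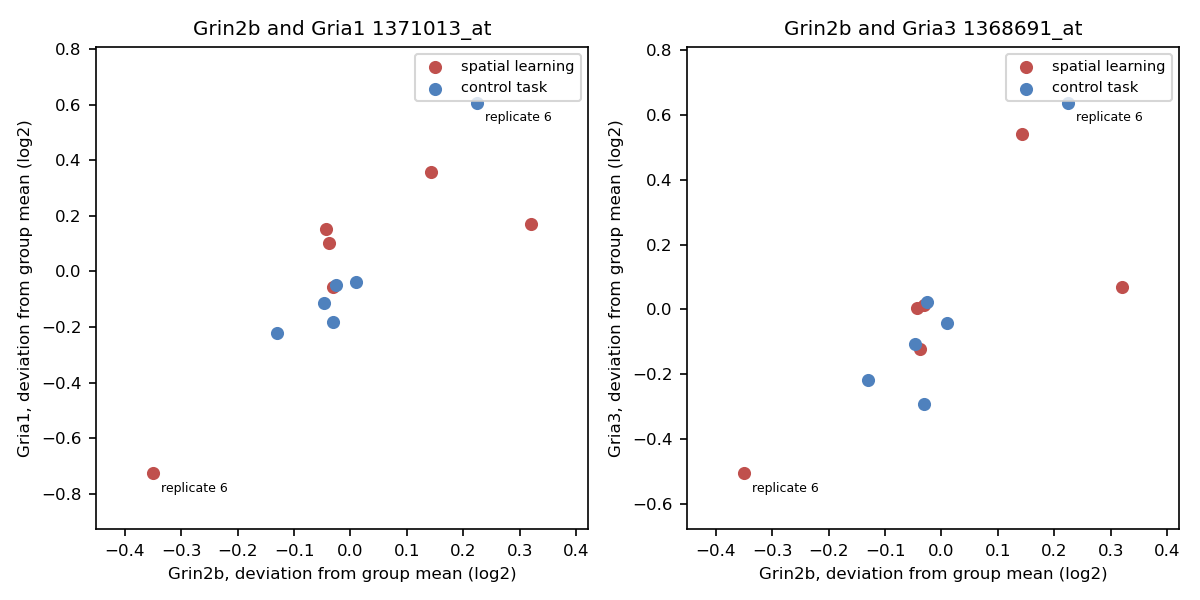
Deviation of Grin2b from its group mean (log2, horizontal) against that of Gria1 (left) and Gria3 probe set 1368691_at (right), 1 point per array, red for spatial learning and blue for control task. The 6th replicate of the learning group lies at the low end of both panels and the 6th control at or near the high end.

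Gria1 itself had levels of 10.23, 11.09 and 11.32 (lowest, median, highest) on the spatial learning arrays, against 10.72, 10.86 and 11.55 on the control task arrays. Replicate 6 of the learning group was the lowest of the 12 and replicate 6 of the controls the highest, as for the Gria3 probe set, which reached 7.96 and 9.10 on those arrays. The other Gria3 probe set, 1376892_at, stayed between 10.73 and 11.11 on all arrays. Among the members alone, a comparison also added after values were seen, the closest pair of the 28 was the brighter Grin2a probe set with Grin2b (Pearson r = 0.72, permutation p = 0.0171, adjusted 0.479, and Spearman rho = 0.62, permutation p = 0.0547, adjusted 0.617), with r = 0.64 without the 2 farthest arrays. The dimmer Grin2a probe set gave r = 0.15 with Grin2b (permutation p = 0.527, and rho = 0.23, permutation p = 0.462). After adjustment 0 of the 28 pairs passed.

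Grin2c encodes GluN2C, known above all from cerebellar granule cells and, in the forebrain, from astrocytes and some interneurons. On probe set 1368306_at the lowest, median and highest levels were 8.99, 9.06 and 9.14 on the spatial learning arrays, against 8.55, 8.94 and 9.11 on the control task arrays. All 6 learning arrays lay above the control median and 4 controls lay below the lowest learning array. The difference was 0.16 (SE 0.076, 95% interval -0.0056 to 0.32, limma adjusted p = 0.471), and an exact permutation test of this probe set alone gave an unadjusted p of 0.0390. Control task replicate 6 was the lowest array, and without it the difference was 0.088 (limma adjusted p = 0.477). Over the same arrays the mean of the 9 astrocyte markers lay between 10.63 and 10.77 in the spatial learning group and between 10.73 and 10.81 in the control task group, with 8 of 9 markers lower after learning (exact permutation p = 0.0368, 0.143 adjusted over 11 marker lists). Their part in the Grin2c value was not tested. In dissected tissue, fewer cells of a type and less RNA per cell cannot be told apart.

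Grin2d and Grin3a encode GluN2D, an early and interneuron-enriched subunit, and the glycine-binding GluN3A, and all their probe sets lay below the level filter. The Grin2d probe sets were nearly constant, at 2.92 to 3.00 on the spatial learning arrays against 2.93 to 3.02 on the control task arrays for 1368951_at, and at 1.81 to 1.83 against 1.80 to 1.84 for 1368950_a_at. Grin3a stood at 3.35, 3.80 and 3.87 (lowest, median, highest) after learning, against 3.83, 3.85 and 4.24 in controls. Each Grin3a group had 1 array far from the rest, learning replicate 1 on the low side and control replicate 6 on the high side, and the probe set was left out of the fit as too dim.

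Of the kainate subunits that form channels alone, Grik2 was tested and Grik1 was not. Grik2, which encodes GluK2, the main subunit of principal neurons, had levels of 7.26, 7.31 and 7.46 (lowest, median, highest) on the spatial learning arrays of probe set 1369036_at, against 7.27, 7.36 and 7.46 on the control task arrays. The groups covered almost the same range. The difference was -0.034 (SE 0.049, 95% interval -0.14 to 0.071, limma adjusted p = 0.836), with ends at 0.908-fold and 1.05-fold. Grik1, which encodes GluK1 and in CA1 is known from interneurons, stayed between 3.72 and 3.81 after learning and between 3.72 and 3.83 in controls, below the level filter.

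Grik5 encodes GluK5, the widely expressed high-affinity partner of GluK2. On probe set 1369128_at its lowest, median and highest levels were 7.87, 8.06 and 8.22 on the spatial learning arrays, against 7.69, 7.91 and 7.93 on the control task arrays. Of the learning arrays, 5 of 6 lay above the highest control, as happened in 2.16% of all tested probe sets for 5 or more arrays, and replicate 1 lay among the controls. The means were 8.05 ± 0.11 after learning and 7.87 ± 0.09 in controls (log2, SD, n = 6 each). The difference of 0.18 (SE 0.062, 95% interval 0.047 to 0.32) corresponds to 1.13-fold, with an interval from 1.03 to 1.24. Its unadjusted limma p was 0.0121 and its adjusted p 0.420, so it did not pass over all probe sets. The difference stayed between 0.15 and 0.22 in 27 other settings, each with an unadjusted p under 0.05 and none with an adjusted p under 0.349. In several of these it could not move, since changes of filter, variance model or floor, the replicate block and the rank-sum test leave it as it is.

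Grik4 encodes GluK4, a high-affinity subunit whose strongest hippocampal expression is known to be in CA3. Probe set 1369163_at gave 6.05, 6.11 and 6.15 (lowest, median, highest) on the spatial learning arrays, against 5.95, 6.04 and 6.08 on the control task arrays. All 6 learning arrays lay above the control median and 4 of 6 above the highest control. The difference was 0.075 (SE 0.043, 95% interval -0.018 to 0.17, limma adjusted p = 0.544), and it was 0.037 without the 3 arrays that stood apart. Its unadjusted limma p was 0.104, while an exact permutation test of this probe set alone gave an unadjusted p of 0.0238. The same exact permutation test gave an unadjusted p of 0.0108 for Grik5, 0.0736 for Grin1 and 0.777 for Grin2b. For Grik2 it gave 0.381, and for the brighter and dimmer Grin2a probe sets 0.400 and 0.121. It was not run over all tested probe sets, so no share stands beside these values. Only 2 CA3 markers were tested and their differences had opposite signs, neither past the threshold. Bok, a BCL2 family gene, had a difference of 0.37 (limma adjusted p = 0.216) and Nnat (neuronatin) one of -0.34 (limma adjusted p = 0.429), and their part in the Grik4 value was not tested. By the exact rank-sum test, Grik5, Grik4 and Grin2c were 3 of 8 members with an unadjusted p under 0.05, against 9.32% of all tested probe sets, and their adjusted p was 0.420, 0.441 and 0.441.

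**Figure D4:**
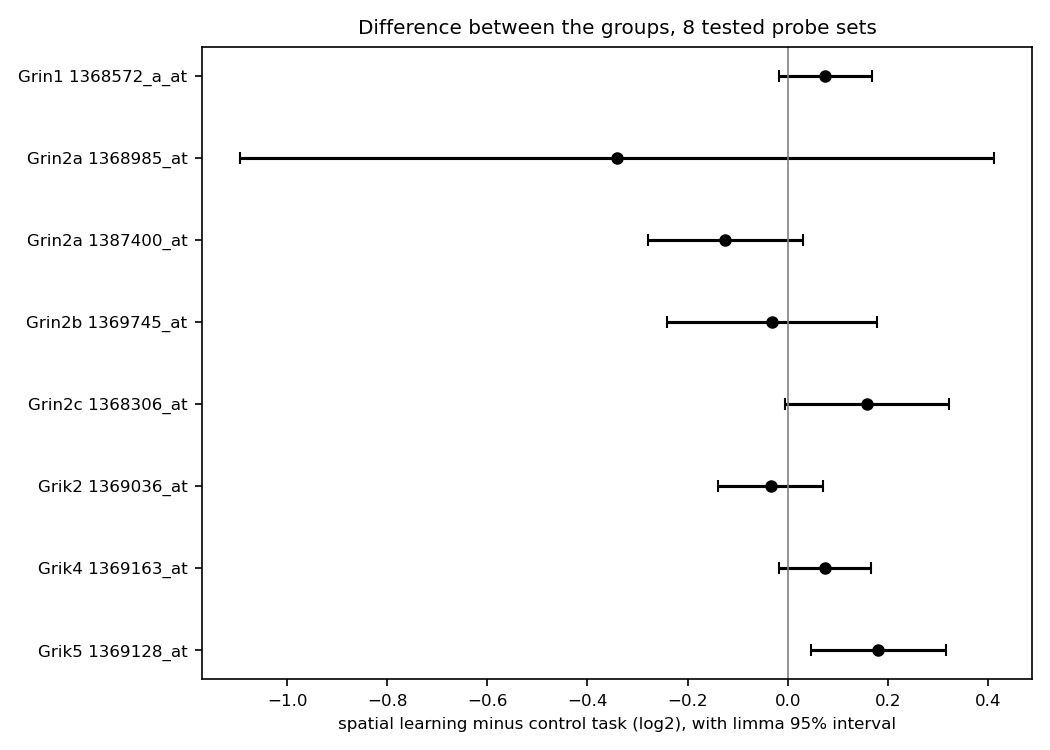
Difference between the groups, spatial learning minus control task (log2), with limma's 95% interval for the 8 tested probe sets. The interval of Grik5 lies above 0, from 0.047 to 0.32 before adjustment, and that of the brighter Grin2a probe set is by far the widest of the 8.

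The same arrays carried the extremes of several members. Control task replicate 6 had the lowest value of the 12 in 4 of the 8 probe sets (Grin1, Grin2c, Grik4 and Grik5) and the highest in 1, the brighter Grin2a probe set. Spatial learning replicate 5 had the highest value in 4 (Grin1, Grin2b, Grik4 and Grik5), and spatial learning replicate 1 the lowest in 3 (both Grin2a probe sets and Grik2). Extremes were not counted over all tested probe sets, so these counts are not read as a trait of the members. Control task replicate 6 also had the highest mean of the meningeal markers, 7.78. Without control task replicate 6 the difference was 0.060 for Grin1, 0.088 for Grin2c, 0.059 for Grik4 and 0.15 for Grik5, each still above 0. Within the groups, none of the 8 probe sets passed a test of correlation with the hexokinase gap. The lowest of the 8 Pearson permutation p was 0.267, for Grin2b (Pearson r = -0.41, 0.819 after adjustment, and Spearman rho = -0.26, permutation p = 0.446, 0.831 after adjustment, with r = -0.17 without the 2 farthest arrays).

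**Figure D5:**
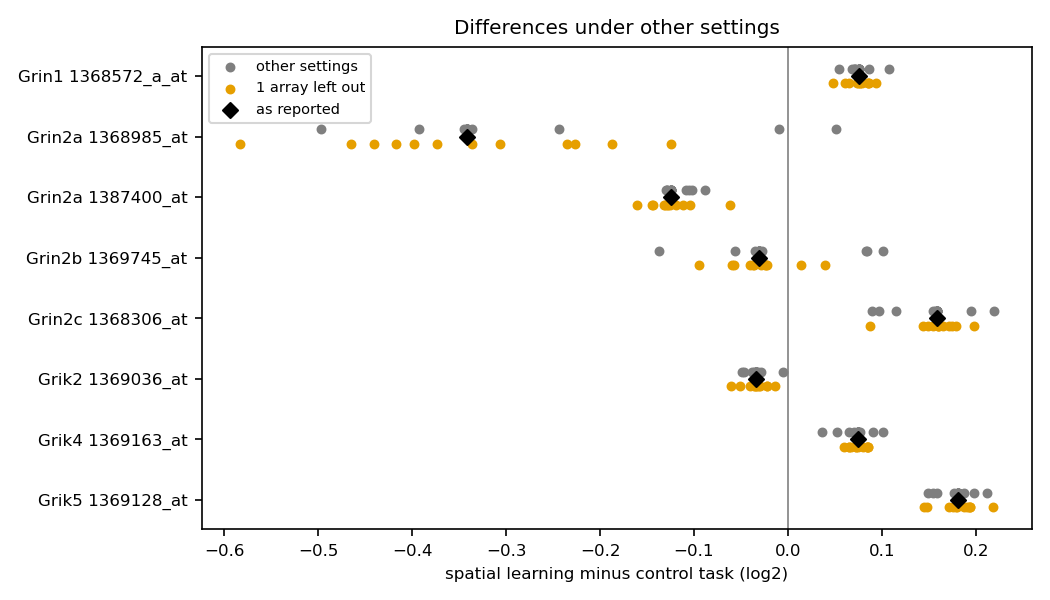
Difference between the groups (log2) for the 8 tested probe sets as reported (black diamonds), with 1 array left out (orange, 12 points each) and in the other settings (grey). Grik5, Grin2c, Grik4 and Grin1 stay above 0 throughout, the dimmer Grin2a probe set and Grik2 stay below it, and the brighter Grin2a probe set and Grin2b lie on both sides.

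For each tested gene the 3 genes whose deviations from the group means were most like its own were picked from all tested probe sets, so the correlations are high by choice and carry no test. The brighter Grin2a probe set was followed most closely by Nfix (a transcription factor), Atrx (a chromatin remodeller) and Ildr2, with Pearson r of 0.98, 0.96 and 0.96 over 12 arrays. Grin2b was closest to Kcnd2, the A-type potassium channel Kv4.2, at 0.94, then to the transcription factor Tcf4 at 0.94 and Mindy2 at 0.92. Spearman's rho with Grin2b was lower for these genes, at 0.63, 0.66 and 0.76. Without replicate 6 of both groups their Pearson r was 0.89, 0.92 and 0.83. Grin1 was closest to Elfn2 (0.90), Mrps22 (0.87) and Nipal1 (0.87). For Grin2c the nearest were Gpd1 (0.90), Ndufaf7 (0.89) and Caprin1 (0.89), all 3 lower without replicate 6 of both groups, at 0.72, 0.66 and 0.72. Grik2 was nearest to Mboat7 (0.95), Dnajc12 (0.91) and Hp (0.88), Grik4 to Nploc4 (0.91), Rnf10 (0.89) and Adipor1 (0.86), and Grik5 to Ythdc1 (0.89), Zfp692 (0.88) and Ipp (0.88).

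Partners of these receptors did not pass the test either, with 0 genes past an adjusted p of 0.05 in 4 lists. Of 22 scaffolds, kinases and transport partners of NMDA receptors 15 were tested, 7 of them higher and 8 lower with a median of -0.00056, and 4 of the 15 had an unadjusted p under 0.05, against 10.9% of all tested probe sets. Cask, a membrane scaffold of the guanylate kinase family, averaged 7.30 ± 0.11 on the spatial learning arrays and 7.55 ± 0.11 on the control task arrays (log2, SD, n = 6 each), a difference of -0.25 (SE 0.065, limma adjusted p = 0.345). Dlg3 (SAP102), which anchors NMDA receptors, differed by 0.13 on its brightest probe set (limma adjusted p = 0.423), with its other tested probe sets at 0.0017 and 0.088. Lin7b, a PDZ adaptor, differed by 0.15 (limma adjusted p = 0.429). Camk2a, the CaMKII subunit that docks on GluN2B, differed by 0.59 on its brightest probe set (SE 0.24, limma adjusted p = 0.434), with its other tested probe sets at -0.17 and 0.13. On that brightest probe set the SD was 0.27 in the spatial learning group and 0.62 in the control task group. Among kainate receptor partners 4 of 9 were tested, 1 higher and 3 lower (median -0.054), and Grip1, a PDZ protein of AMPA and kainate receptors, stood at 0.21 (limma adjusted p = 0.409). The glycine and D-serine genes, which supply the co-agonist, had 5 higher and 3 lower of 8 tested (median 0.012), 0 of them at an unadjusted p under 0.05. A list of 9 further genes held AMPA, delta and remaining NMDA and kainate subunits and Grina, an NMDA receptor associated membrane protein that is not a channel subunit. Of these, Gria1, Gria2, Gria3 and Grina were tested, 4 in all, with 2 higher, 2 lower and a median of -0.012. Gria4, Grid1, Grik3 and Grin3b lay below the level filter, at means from 1.62 to 2.52. These medians compare with 0.0079 over all tested probe sets.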

How the data were processed

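The deposited values are log2 probe set summaries that the authors made with GCRMA, per the submitters' processing notes, which corrects background by probe sequence, normalizes between arrays and summarises probes. The version is not given in the sources used here. The log2 scale was read from the range, 0.134 to 14.8. GCRMA evens out array totals and compresses dim probe sets. Groups and replicate numbers came from the sample titles, and scan batches are not given there.

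Of 15923 probe sets, 57 are controls, 12783 have 1 gene symbol, 312 several and 2771 none in the platform annotation. All 13 members matched a rat RefSeq gene (GRCr8) of the same symbol. No protein or probe sequence was used. The 9610 probe sets with a mean of at least 4 were fitted with limma 3.58.1 in R 4.3.3 (group as the only term, intensity trend, 2-sided, Benjamini-Hochberg over all of them). On simulated data of this comparison (9610 probe sets) it called 89% of 100 changes of 0.5 and 97% of 100 changes of 1 (log2), and 11 of 9410 unchanged ones. Changes between 0 and 0.5 in size, where the differences of all tested members lay, were not simulated. Noise was drawn independently for each probe set, without effects shared by an array. The simulation therefore does not give the power for differences of the members' size. Exact permutation tests ran over all 924 choices of 6 arrays, with 0.00216 as the smallest possible p, and correlations used 100000 permutations within groups.

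Members and gene lists were chosen with earlier results of these data known. Each list gene entered through its brightest probe set. Named list genes were those at an unadjusted p under 0.05, at most 4 per list. The labels do not say that replicate numbers pair the animals. Same-numbered arrays' deviations correlated between -0.17 and 0.08, and 0 of 6 pairs exceeded 0.1. Both arrays numbered 6 had high meningeal marker means, 7.58 after learning and 7.78 in the control task. This check cannot settle whether same-numbered animals were handled together. Alternatives covered the filter, variance model, weights, normalization, floor, covariates, replicate block, rank-sum test and arrays left out.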

Additional observations from a re-analysis of the deposited data

Results flagged for a closer look

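In 28 groups of 6 arrays (13 probe sets and the Grin2a minus Grin2b value, each in both groups), 7 held an array far from the others by Dixon's criterion, where about 1 in 20 groups would by chance. Grin3a reached 3.35 on spatial learning replicate 1 (next 3.76) and 4.24 on control task replicate 6 (next 3.86). Grik1 had 3.72 on spatial learning replicate 5 (next 3.79) and 3.72 on control task replicate 5 (next 3.80). Grik2 stood at 7.46 on spatial learning replicate 5 (next 7.33). The dim Grin1 probe set 1389900_at had 3.61 on control task replicate 5 (next 3.04) and Grin2d 1368951_at had 3.02 on the same array (next 2.95). Of these, 6 concern probe sets below the level filter, and the gaps of Grin2d and Grik1 are under 0.1 (log2).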

How the results depend on the processing

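With 6 arrays a group, precision is limited by the number of animals. Over 27 alternatives the count of members past an adjusted p of 0.05 remained 0. Changes of filter, variance model and floor, the replicate block and the rank-sum test cannot move a member's difference. Of 214 member values under an alternative, those of these settings included, 208 kept their direction and side of the threshold and 6 changed direction. For Grin2a (1368985_at) this was 0.051 without the 3 arrays apart. For Grin2b it was 0.10 with the hexokinase covariate, 0.083 without the 3 arrays, 0.084 without replicate 6 of both groups (added once the values had been seen) and -0.095 to 0.039 leaving out 1 array, with 0.014 without control task replicate 6. The cause was not tested. Members at an unadjusted p under 0.05 numbered 2 with the CA3 and dentate covariate, 3 by rank-sum test, and 1 to 3 leaving out 1 array. Over all probe sets, calls at an adjusted p of 0.05 numbered 3 with array weights, 5 without the 3 arrays, 16 without replicate 6 of both groups, and 0 to 3 leaving out 1 array, with 3 without control task replicate 6. Those at an unadjusted p under 0.05 numbered 605 with the hexokinase covariate and 779 to 1141 leaving out 1 array. Grin2a minus Grin2b ranged from -0.52 to -0.14 leaving out 1 array, and was -0.033 without the 3 arrays. The replicate block, which the deviations do not support as a pairing (1 of 6 learning arrays correlated best with its own number), gave 0 calls and 769 at an unadjusted p under 0.05. It cannot move a difference here, since each number occurs once per group, and the unadjusted p of Grik5 was 0.0169 with it.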
